A study of Mus musculus with 8 samples.

Results

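The genes described here carry the signal of transforming growth factor-β (TGF-β) from the cell surface to the nucleus. They are the receptor genes Tgfbr1, Tgfbr2, Tgfbr3, Acvrl1 and Eng, the Smad genes Smad2, Smad3 and Smad4, the kinase gene Map3k7, which encodes TAK1, and the transcription factor gene Sp1. They were chosen by symbol, and all 10 were found among the 23361 genes of the deposited table. RNA was sequenced from induced regulatory T cells (iTreg), which were made in culture from naïve CD4+ T cells of wild-type B6 (C57BL/6) Foxp3-RFP reporter mice, male and 7 to 8 weeks old by the study's methods. Per the labels the cells received anti-CD3/CD28 beads, IL-2 at 50 U/ml and TGF-β at 2 ng/ml for 3 days, although another label gives day 5 and the methods give day 3 and another amount of IL-2. Live CD4+ Foxp3-RFP+ cells were then split by a sort for Nrp-1 into Nrp-1+ iTreg (4 libraries) and Nrp-1- iTreg (4 libraries), so both groups carried the reporter and both had seen added TGF-β. The labels call the libraries biological replicates and do not say whether mice or cultures were pooled, so p-values measure the spread between these libraries.

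TGF-β is bound by the type II receptor encoded by Tgfbr2, a constitutively active kinase, which then phosphorylates the type I receptor encoded by Tgfbr1 (ALK5). ALK5 phosphorylates Smad2 and Smad3, which join Smad4 and enter the nucleus, whereas TAK1 carries a branch that does not need Smads towards the JNK, p38 and NF-κB pathways. In naïve CD4+ T cells, TGF-β together with T cell receptor signals switches on Foxp3, in part through Smad3 bound at the Foxp3 locus. Neuropilin-1, on which these subsets were sorted, can itself bind TGF-β and its receptors, and Sp1 is a factor that binds GC-rich promoter elements called GC boxes.

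Expression was measured as FPKM, a fragment count divided by transcript length and by the size of the library, so levels can be compared between genes per unit length. From the steps of very low values, the depth of the libraries relative to replicate 1 of Nrp-1+ iTreg lay between 0.810 and 1.24. Genes of short RNAs made up 1.81% to 38.9% of the summed FPKM in the Nrp-1+ libraries and 4.49% to 44.0% in the Nrp-1- libraries. Cd4, Cd3e, Cd3g, Foxp3 and Il2ra were high in all 8 libraries, and Nrp1 was at 21.5 FPKM against 4.95 FPKM, so the groups matched their labels. Genes of the cell cycle, listed because earlier results of these data had shown them to differ, also separated the groups. The sum of 10 such genes was 1155 to 1200 FPKM in the Nrp-1+ libraries and 608.0 to 625.9 FPKM in the others, and the part of this difference in the results below was not tested. In bulk RNA, fewer cells that express a gene and less RNA per cell cannot be told apart.

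To place the genes, the 250 bases before the RefSeq transcription start (assembly GRCm38.p6) are shown for the main receptor pair, Tgfbr1 and Tgfbr2, which moved in opposite directions, and for Nrp1, the gene of the sort. Capitals mark GC boxes, the letters GGGCGG on either strand. The windows lie directly before that start, at chr4:47352972-47353221 on the plus strand for Tgfbr1 (the first of its 2 starts), chr9:116175364-116175613 on the minus strand for Tgfbr2, and chr8:128358823-128359072 on the plus strand for Nrp1. In GENCODE M21 they overlap no exon of these genes, and the Nrp1 window lies within the Nrp1 gene, whose annotated start is further upstream.
Tgfbr1: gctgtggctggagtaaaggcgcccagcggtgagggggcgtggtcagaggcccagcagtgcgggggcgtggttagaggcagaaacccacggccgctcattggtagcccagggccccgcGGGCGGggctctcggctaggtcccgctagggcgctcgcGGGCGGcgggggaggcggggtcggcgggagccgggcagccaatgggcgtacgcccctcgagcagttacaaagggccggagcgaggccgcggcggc
Tgfbr2: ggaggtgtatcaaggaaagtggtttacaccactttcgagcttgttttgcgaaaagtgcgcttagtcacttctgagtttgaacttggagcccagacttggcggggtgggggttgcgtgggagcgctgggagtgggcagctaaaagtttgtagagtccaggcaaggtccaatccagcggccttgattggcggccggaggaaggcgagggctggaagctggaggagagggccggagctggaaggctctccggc
Nrp1: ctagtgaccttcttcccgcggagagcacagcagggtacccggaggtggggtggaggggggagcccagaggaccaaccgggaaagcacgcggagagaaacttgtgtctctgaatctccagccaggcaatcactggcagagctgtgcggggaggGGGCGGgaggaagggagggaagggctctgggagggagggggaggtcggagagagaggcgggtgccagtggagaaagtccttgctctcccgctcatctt

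The Tgfbr1 window held 2 GC boxes, 90 and 128 bases before the start, the Nrp1 window held 1, and the Tgfbr2 window held none. Such letters are common, since 32.7% of the 32851 windows of this length in the table held at least 1. Windows were read for 6 of the 10 genes. The windows of Map3k7 and Sp1 overlap an exon of their own gene in GENCODE M21, and those of Smad3, Eng and the second Tgfbr1 start do not. Those of Map3k7 and Smad3 held 2 GC boxes each, that of Sp1 held 4, and those of Eng and of the second Tgfbr1 start held none. None of these windows held the CAGA box AGCCAGACA, present in 0.301% of all windows, or the palindromic Smad element GTCTAGAC, present in 0.167%. Tgfbr3 and Acvrl1 had no window. Windows on chromosome 18, which holds Smad2 and Smad4, were left out, so these 2 genes were not read.

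Between the subsets, receptor genes changed in both directions. Of the 10 genes, 4 rose in Nrp-1+ iTreg (Eng, Tgfbr3, Tgfbr1 and Map3k7) and 2 fell (Acvrl1 and Tgfbr2), with an adjusted p under 0.05 by limma. Smad2, Smad3, Smad4 and Sp1 did not pass. These shares must be read against a wide background, because 20.9% of all 10467 genes tested were higher and 20.0% lower by the same rule, 40.9% in all. The median log2 fold change of the 10 genes was 0.03, against -0.02 over all genes tested. No gene of the 10 reached a 2-fold ratio of group means, and the largest ratio was 1.68, for Eng. After adjusting the libraries for GC content and transcript length, an alternative added after the data were examined, the higher genes were 39.0% of all genes called in place of 51.1%, with 1987 genes higher and 3105 lower of the 10467, and the counts among the 10 were 4 higher and 4 lower.

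**Figure D1:**
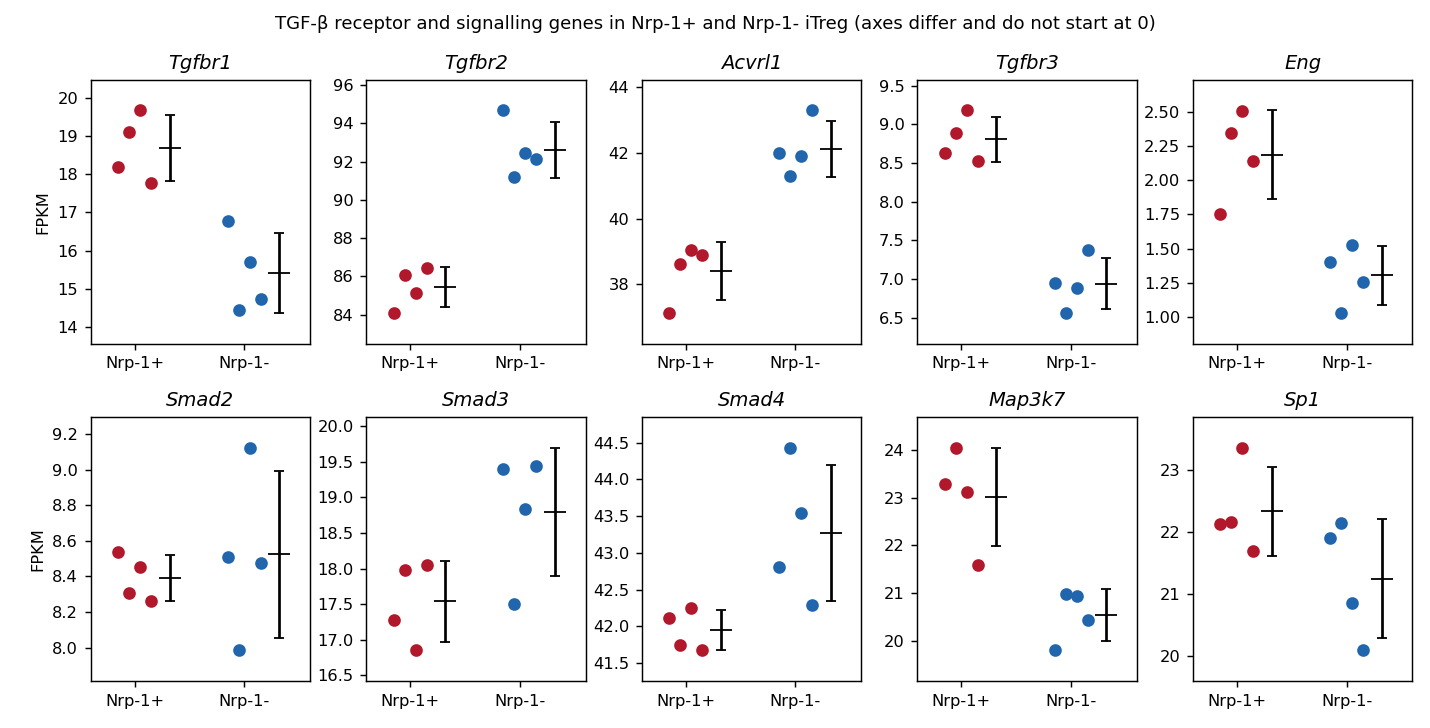
FPKM of the 10 genes in each of the 8 libraries by subset, 1 point per library, with the group mean and SD as a black bar beside the points; the vertical axes differ between panels and do not start at 0. The groups are apart for Tgfbr1, Tgfbr2, Acvrl1, Tgfbr3, Eng, Map3k7 and, by a narrow margin, Smad4, and they overlap for Smad2, Smad3 and Sp1.

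The signalling type I receptor was higher in Nrp-1+ iTreg. Tgfbr1 was at 18.2, 19.1, 19.7 and 17.8 FPKM in replicates 1 to 4 of Nrp-1+ iTreg and at 16.8, 14.5, 15.7 and 14.7 FPKM in those of Nrp-1- iTreg. The lowest Nrp-1+ library thus lay above the highest Nrp-1- library. The means were 18.7 ± 0.872 FPKM (SD, n = 4) and 15.4 ± 1.05 FPKM (SD, n = 4), an increase of 21.2%, and the exact two-sided permutation p was 0.0286, the smallest that 4 against 4 allow. The log2 fold change on the scale of log2(FPKM + 1) was 0.26 (standard error, SE, 0.05; limma adjusted p = 0.00423).

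The type II receptor moved the other way. Tgfbr2 was at 84.1, 86.1, 85.1 and 86.4 FPKM in Nrp-1+ iTreg and at 94.7, 91.2, 92.4 and 92.1 FPKM in Nrp-1- iTreg. The replicates lay close together and the groups were apart by more than their spread, with means of 85.4 ± 1.06 FPKM and 92.6 ± 1.48 FPKM (SD, n = 4 each). The change was -7.75%, and the log2 fold change was -0.11 (SE 0.02, limma adjusted p = 0.00211; exact permutation p = 0.0286). In size it ranked 3860 among the 4282 genes called, so it was a small change measured with little error.

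Acvrl1, which encodes the type I receptor ALK1, best known from endothelial cells where it signals through the Smads of the bone morphogenetic protein (BMP) branch, was lower too. Its values were 37.1, 38.6, 39.0 and 38.9 FPKM in Nrp-1+ iTreg and 42.0, 41.3, 41.9 and 43.3 FPKM in Nrp-1- iTreg, without overlap. The change was -8.78%, and limma gave a log2 fold change of -0.13 (SE 0.02, adjusted p = 0.00357). Acvrl1 shares exon sequence with an antisense gene in the GENCODE M21 annotation, and whether reads were assigned by strand in counting is not given in the sources used here. The methods describe directional libraries, whereas the labels name another kit.

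Both co-receptor genes rose. Tgfbr3 encodes betaglycan, a co-receptor that presents TGF-β to the type II receptor, and was at 8.63, 8.89, 9.19 and 8.53 FPKM in Nrp-1+ iTreg and at 6.95, 6.56, 6.88 and 7.37 FPKM in Nrp-1- iTreg. Every Nrp-1+ library was above every Nrp-1- library, and the mean was 26.8% higher. The log2 fold change of 0.30 (SE 0.04) had the smallest adjusted p of the 10 genes, 0.000504 by limma. Tgfbr3 shares exon sequence with Gm43422, a gene on the same strand in GENCODE M21, and how such reads were assigned is not given.

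Eng encodes endoglin, an endothelial co-receptor that acts with ALK1, and was the lowest of the 10 genes. It was at 1.75, 2.34, 2.51 and 2.14 FPKM in Nrp-1+ iTreg and at 1.40, 1.03, 1.53 and 1.26 FPKM in Nrp-1- iTreg, which is roughly 69 to 190 fragments in a library if its longest transcript is taken as its length. The groups did not overlap, but the spread was wide, with a coefficient of variation of 14.9% in Nrp-1+ iTreg and 16.4% in Nrp-1- iTreg. The ratio of the means was 1.68, and limma's log2 fold change of 0.47 (SE 0.10, adjusted p = 0.00656) understates it because 1 was added to each low value.

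Eng shares exon sequence with Fpgs on the opposite strand. Fpgs was at 2.35 ± 0.148 FPKM with Nrp-1 and at 2.46 ± 0.246 FPKM without it (SD, n = 4 each), with overlapping groups (adjusted p = 0.625 by limma). Endothelial markers differed in level. Tek was listed at 0 in all 8 libraries, and Kdr and Vwf stayed under 0.03 FPKM. Cdh5 was at 0.551 FPKM against 0.622 FPKM with overlapping groups. Pecam1, which T cells express as well, was at 59.0 FPKM against 62.4 FPKM, also with overlap. Nearly all of the summed 8 endothelial and stromal markers was Pecam1, and the sum was 58.8 to 62.0 FPKM in the Nrp-1+ libraries and 60.6 to 67.3 FPKM in the Nrp-1- libraries. Col1a1 and Col1a2, both collagen genes of stromal cells, together spanned 0.117 to 1.13 FPKM in the Nrp-1+ libraries and 0.297 to 1.36 FPKM in the Nrp-1- libraries.

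Replicate 3 of Nrp-1+ iTreg was the deepest library of its group and held that group's highest value of Tgfbr1, Tgfbr3, Acvrl1, Eng, Smad4 and Sp1. Without it, the log2 fold changes were 0.24 for Tgfbr1, 0.29 for Tgfbr3, -0.14 for Acvrl1 and 0.42 for Eng, and all 4 still passed (adjusted p by limma at most 0.0187).

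**Figure D2:**
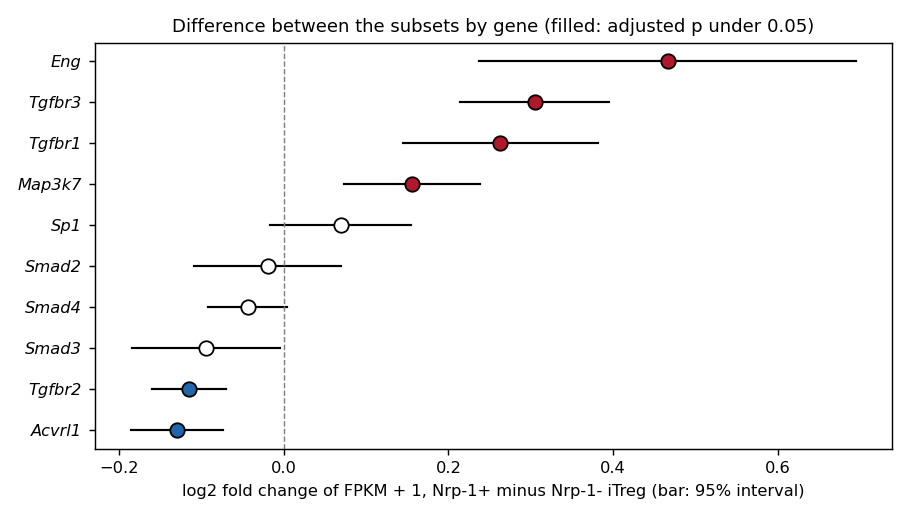
Log2 fold change on the log2(FPKM + 1) scale, Nrp-1+ iTreg minus Nrp-1- iTreg, of the 10 genes in order of change, with 95% intervals from limma as bars and filled points for an adjusted p under 0.05. Eng, Tgfbr3, Tgfbr1 and Map3k7 lie to the right of 0 and Tgfbr2 and Acvrl1 to the left, while Sp1, Smad2, Smad4 and Smad3 are open points.

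Because the receptor genes moved in opposite directions, their proportions differed between the subsets. In each library Tgfbr2 exceeded Tgfbr1, by 4.33 to 4.87 times in Nrp-1+ iTreg and by 5.65 to 6.31 times in Nrp-1- iTreg. The ratio of Acvrl1 to Tgfbr1 was 1.98 to 2.19 in Nrp-1+ iTreg and 2.50 to 2.94 in Nrp-1- iTreg. Between the pair that fell, the ratio of Tgfbr2 to Acvrl1 overlapped, at 2.18 to 2.26 and 2.13 to 2.26. These ratios are taken within a library and do not depend on its scaling, and they are given as descriptions without a test.

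**Figure D3:**
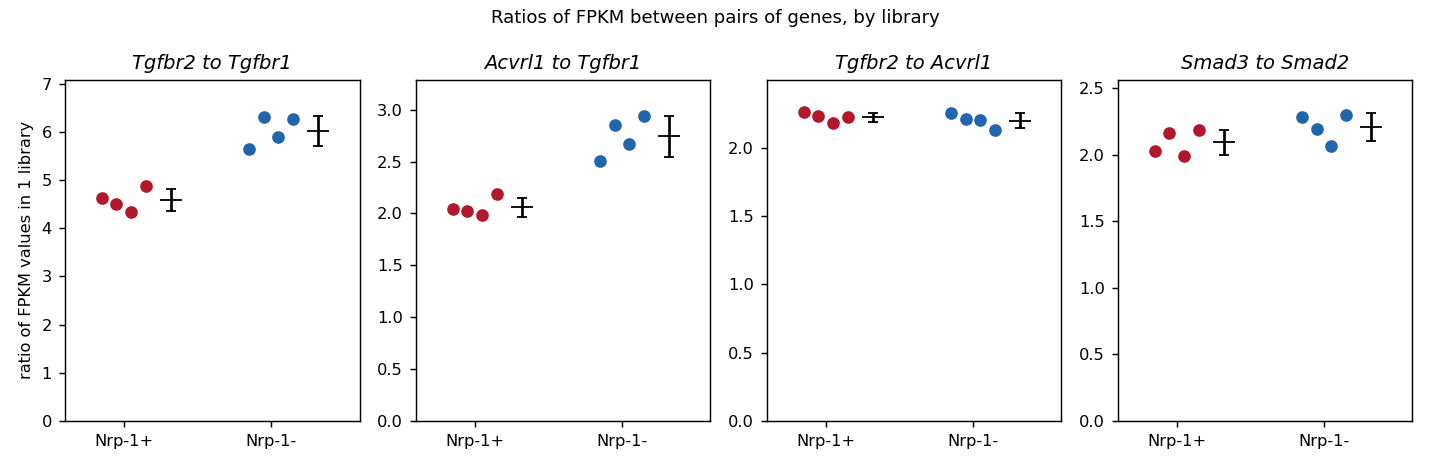
Ratios of FPKM between pairs of genes within each library, 1 point per library, with the group mean and SD as a black bar; the vertical axes start at 0. Tgfbr2 to Tgfbr1 averages 4.58 in Nrp-1+ iTreg and 6.02 in Nrp-1- iTreg without overlap, whereas Tgfbr2 to Acvrl1 and Smad3 to Smad2 overlap.

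The Smad genes that carry the signal of ALK5 did not pass the test. Smad2 was at 8.54, 8.31, 8.46 and 8.26 FPKM in Nrp-1+ iTreg and at 8.51, 7.98, 9.13 and 8.48 FPKM in Nrp-1- iTreg, so the Nrp-1+ libraries lay inside the range of the Nrp-1- libraries. Its log2 fold change was -0.02, with a 95% interval from -0.11 to 0.07 (adjusted p = 0.725 by limma), and the sign turned to 0.011 without replicate 3 of Nrp-1- iTreg.

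Smad3 was at 17.28, 17.97, 16.85 and 18.05 FPKM in Nrp-1+ iTreg and at 19.4, 17.5, 18.8 and 19.4 FPKM in Nrp-1- iTreg. A single library, replicate 2 of Nrp-1- iTreg, lay within the Nrp-1+ range. The log2 fold change was -0.09, with a 95% interval from -0.18 to -0.0044 and an adjusted p of 0.0876 by limma. It passed without replicate 2 of Nrp-1- iTreg (-0.13, adjusted p = 0.0200), with quantile normalization (adjusted p = 0.0433) and with the GC and length correction (adjusted p = 0.0260), but not with that correction and the replicate block together (adjusted p = 0.0707).

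Smad4, the partner shared by the TGF-β and BMP branches, was at 42.1, 41.7, 42.3 and 41.7 FPKM in Nrp-1+ iTreg and at 42.8, 44.4, 43.5 and 42.3 FPKM in Nrp-1- iTreg. The groups were barely apart, with the highest Nrp-1+ library at 42.254 and the lowest Nrp-1- library at 42.292 FPKM. The log2 fold change was -0.04, with a 95% interval from -0.09 to 0.0045 (adjusted p = 0.132 by limma), and with the GC and length correction it was -0.08 (adjusted p = 0.0117). The ratio of Smad3 to Smad2 was 1.99 to 2.18 in Nrp-1+ iTreg and 2.06 to 2.29 in Nrp-1- iTreg.

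TAK1 and Sp1 stood at nearly the same level, but only Map3k7 passed the test. Map3k7 was at 23.3, 24.1, 23.1 and 21.6 FPKM in Nrp-1+ iTreg and at 19.79, 20.98, 20.94 and 20.44 FPKM in Nrp-1- iTreg, without overlap. The ratio of the means was 1.12, and limma gave a log2 fold change of 0.16 (SE 0.04, adjusted p = 0.00930). Sp1 was at 22.1, 22.2, 23.4 and 21.7 FPKM in Nrp-1+ iTreg and at 21.9, 22.1, 20.9 and 20.1 FPKM in Nrp-1- iTreg, with overlapping groups. Its log2 fold change was 0.07, with a 95% interval from -0.02 to 0.15 (adjusted p = 0.171 by limma). The difference between the changes of Map3k7 and Sp1 was not tested.

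In order of mean level over the 8 libraries, Tgfbr2 (89.0 FPKM) came first, followed by Smad4 (42.6), Acvrl1 (40.3), Sp1 (21.8), Map3k7 (21.8), Smad3 (18.2), Tgfbr1 (17.0), Smad2 (8.46), Tgfbr3 (7.87) and Eng (1.75). Tgfbr2 was thus 2.09 times the next gene, and Tgfbr3 was 4.51 times Eng. Sp1 and Map3k7 overlapped in both groups. Smad4 and Acvrl1 overlapped in Nrp-1- iTreg only, whereas Smad3 with Tgfbr1 and Smad2 with Tgfbr3 overlapped in Nrp-1+ iTreg only. The groups were apart in 7 of the 10 genes, higher in 4 and lower in 3, where 20.2% of all genes tested were higher without overlap and 19.3% lower, 39.5% in all.

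The wider pathway was read from lists of related genes. Among 9 activin, BMP and anti-Müllerian hormone receptor genes, 3 were tested, 1 rose and none fell (33.3% called, against 40.9% of all genes tested). Bmpr2, the type II receptor for BMPs, was at 3.35 ± 0.147 FPKM against 2.90 ± 0.188 FPKM (SD, n = 4 each; log2 fold change 0.16, adjusted p = 0.0390 by limma), and lost its call with the replicate block (adjusted p = 0.0614), with quantile normalization (0.103) and without any single library other than replicate 2 of Nrp-1- iTreg (0.0501 to 0.0874). Bmpr1a (2.65 against 2.27 FPKM, adjusted p = 0.0614 by limma) and the activin type I receptor gene Acvr1b (16.8 against 16.9 FPKM, adjusted p = 0.906) did not pass. Acvr1, the type I receptor ALK2, had a mean under 1 FPKM and was tested without the filter on low values. It was at 1.25, 1.23, 1.25 and 1.68 FPKM in Nrp-1+ iTreg and at 0.674, 0.886, 0.398 and 0.611 FPKM in Nrp-1- iTreg, a ratio of 2.10 without overlap (adjusted p = 0.00724 by limma).

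Of the receptor-regulated Smads of the BMP branch, Smad5 fell from 6.94 ± 0.448 FPKM in Nrp-1- iTreg to 5.99 ± 0.168 FPKM in Nrp-1+ iTreg (SD, n = 4 each; log2 fold change -0.18, adjusted p = 0.0135 by limma). Smad1 was at 7.30 FPKM against 6.96 FPKM (adjusted p = 0.365), and Smad9 was listed at 0 in all 8 libraries. Of the ligand genes, Tgfb1 rose by 9.33% (adjusted p = 0.00480 by limma, and 0.0620 with quantile normalization), Tgfb3 was at 0.469 FPKM against 0.642 FPKM, under the filter, and Tgfb2 did not exceed 0.0174 FPKM.

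Inhibitors of the pathway are known for acting on receptors, on Smads or on their target genes. Of 9 tested genes for inhibitory Smads, Smad ubiquitin ligases, corepressors, the Smad phosphatase gene Ppm1a and the inhibitor gene Pmepa1, 1 rose and 3 fell (44.4%, near the 40.9% of all genes tested), with a median log2 fold change of -0.07. Smad7, the inhibitory Smad that TGF-β itself induces and that targets the ALK5 receptor, was at 28.2, 28.0, 30.3 and 30.6 FPKM in Nrp-1+ iTreg and at 37.7, 36.1, 35.3 and 34.4 FPKM in Nrp-1- iTreg. The groups were well apart, and limma's log2 fold change of -0.28 (SE 0.04, adjusted p = 0.000759) was larger in size than that of Tgfbr2. Pmepa1, another inhibitor that TGF-β induces, went the other way, from 14.0 ± 0.548 FPKM in Nrp-1- iTreg to 16.7 ± 0.361 FPKM in Nrp-1+ iTreg (SD, n = 4 each; log2 fold change 0.24, adjusted p = 0.000617 by limma).

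Smurf1, a ubiquitin ligase for Smads and receptors, fell by 10.0% (adjusted p = 0.0246 by limma), and the corepressor gene Tgif1 by 14.1% with overlapping groups (adjusted p = 0.0406). Both calls were fragile. That of Smurf1 was lost without replicate 2 or 4 of Nrp-1+ iTreg or without replicate 1, 2 or 3 of Nrp-1- iTreg (adjusted p from 0.0524 to 0.0655). That of Tgif1 was lost with the replicate block (adjusted p = 0.0688) and without replicate 1 or 4 of Nrp-1+ iTreg or replicate 1, 3 or 4 of Nrp-1- iTreg (0.0871 to 0.0996). Smurf2, Ski, Skil, Tgif2 and Ppm1a did not pass.

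Around TAK1, 1 gene rose and 1 fell among 11 tested (18.2%, against 40.9% of all genes tested). Tab2, which encodes an adaptor that activates TAK1, was at 43.2 ± 0.632 FPKM in Nrp-1+ iTreg against 47.8 ± 1.82 FPKM (SD, n = 4 each; log2 fold change -0.14, adjusted p = 0.00533 by limma). Map2k3, a kinase between TAK1 and p38, was at 27.8 ± 1.40 FPKM against 24.6 ± 0.953 FPKM (log2 fold change 0.17, adjusted p = 0.0133), a call lost with the GC and length correction and the replicate block together (adjusted p = 0.0539). The other 9, among them Tab1, Tab3, Traf6, Mapk14, Mapk8 and Mapk9, did not pass, and the median over the 11 was -0.0096.

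Of 6 tested genes for partners of Smads (Zfyve16, Crebbp, Ep300, Trim33, Sptbn1 and Nedd4l), 1 passed (16.7%, against 40.9% of all genes tested). Ep300, the histone acetyltransferase p300, fell from 25.0 ± 0.714 FPKM in Nrp-1- iTreg to 22.7 ± 0.582 FPKM in Nrp-1+ iTreg (SD, n = 4 each; log2 fold change -0.13, adjusted p = 0.00649 by limma). Sp2, Sp3 and Sp4, relatives of Sp1, gave 0 passing genes of 3 by limma, and 1 at an unadjusted p under 0.05, Sp4 (12.3 against 13.1 FPKM, adjusted p = 0.0896), where 49.5% of all genes tested had such a p. Foxp3 was 6.44% higher in Nrp-1+ iTreg (adjusted p = 0.0245 by limma), a call lost when Nrp-1+ replicate 2 (0.0559), Nrp-1- replicate 2 (0.0525) or Nrp-1- replicate 3 (0.0623) was left out.

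**Figure D4:**
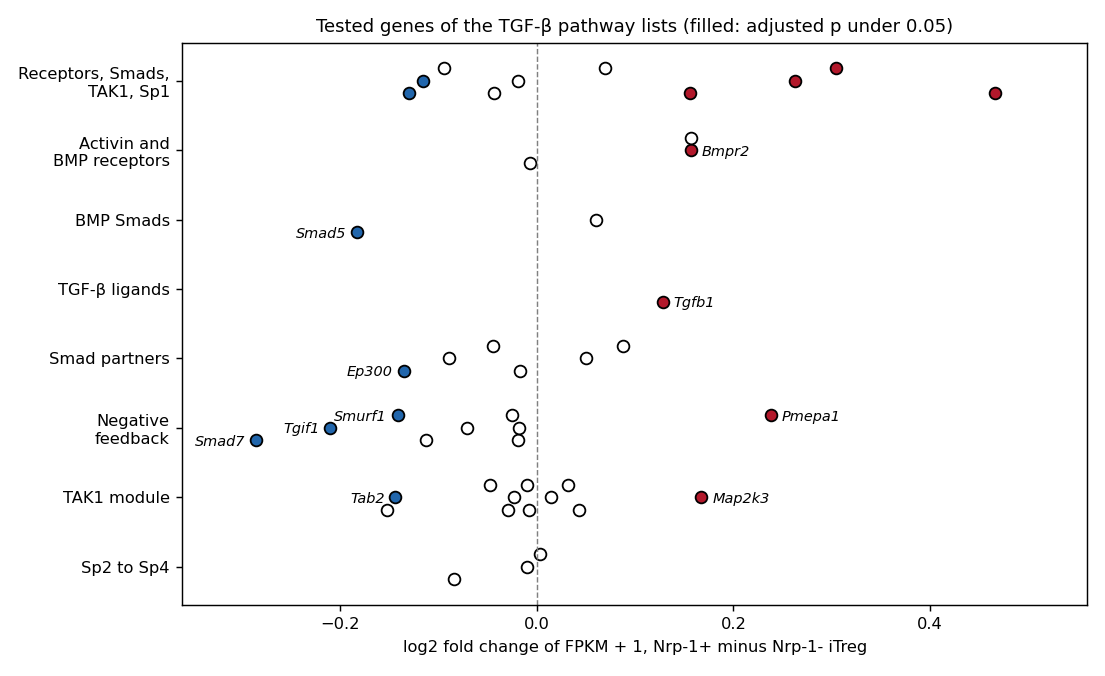
Log2 fold change on the log2(FPKM + 1) scale, Nrp-1+ iTreg minus Nrp-1- iTreg, of every tested gene in the 10 genes and in 7 lists of related genes, 1 point per gene, filled where the adjusted p was under 0.05 and named outside the first line. Smad7 and Pmepa1 lie at -0.28 and 0.24 within the same list, and the Sp relatives have no filled point.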

How the data were processed

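RNA of 4 Nrp-1+ and 4 Nrp-1- iTreg samples was sequenced. The authors used the CLC Genomics Workbench and Cufflinks, per the study's methods, and the deposited table holds FPKM by gene symbol, 1 column per library. The submitters' processing notes name GRCm38 and mm10. Annotation, strand setting and alignment parameters are not given in the sources used here, and labels and methods name different library kits. Since FPKM values are not counts, no count model was fitted. The 10467 of 23361 genes whose FPKM averaged 1 or more were compared by limma 3.58.1 in R 4.3.3 on log2(FPKM + 1), using group as the single term, an intensity trend and Benjamini-Hochberg adjustment over all of them. Single genes were also compared by an exact two-sided permutation test in Python 3.11.15. Depth was read from genes under 0.3 FPKM, where 54.2% to 58.9% of the ratios between libraries were small whole-number ratios times a factor (tolerance 0.005 on the natural log scale). Fragment numbers are approximate and cover counting error only. The members and lists were chosen with earlier results of these data known. Named were the 10 genes, Nrp1, Tgfb1, Foxp3, up to 4 passing genes per list and the 2 genes most alike each passing gene. Acvr1, Bmpr1a and the genes with an adjusted p above 0.05 were named after their values were seen. Adgre1 was matched as Emr1. Positions come from GENCODE M21 and promoters from RefSeq (both GRCm38).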

Additional observations from a re-analysis of the deposited data

Results flagged for a closer look

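Among 28 groups of 4 values searched (13 genes and the depth, in each subset), 2 held a library far from the other 3, where chance alone gives about 1.4. For Tgfb1, replicate 4 of Nrp-1+ iTreg had 165.9 FPKM and its 3 fellows 160.8 to 161.5 FPKM. For relative depth, replicate 3 of the same subset stood at 1.22 and its fellows at 0.994 to 1.00. No value of the 10 receptor and signalling genes was flagged.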

How the results depend on the processing

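Results were recomputed under 20 alternatives: pseudocounts of 0.1 and 0.5, no filter, a filter at 5 FPKM, size factors, quantile normalization, the replicate block, no trend, array weights, no short RNA genes, each library left out, and, added after the data were examined, the GC and length correction without and with the replicate block. Tgfbr1, Tgfbr2, Tgfbr3, Acvrl1 and Map3k7 kept direction and call in all 20, and Eng in the 19 that tested it. Their log2 fold changes ranged from 0.23 to 0.30, -0.13 to -0.10, 0.28 to 0.34, -0.15 to -0.11, 0.12 to 0.19 and, for Eng, 0.41 to 0.70, with adjusted p by limma of at most 0.0381. The count of lower genes among the 10 was 2 and became 4 with the GC and length correction. The cause was not tested. It became 3 with quantile normalization, through Smad3, and 3 with that correction and the replicate block, where Smad4 had an adjusted p of 0.0372. Without single libraries it was 2 to 3, and Smad2 ranged from -0.047 to 0.011. With the replicate block 1931 genes were higher and 1675 lower, in place of 2189 and 2093, and among the 10 genes 4 and 2. The correlation of deviations between same-numbered libraries was -0.11 to -0.04 without short RNA genes and -0.54 to 0.01 over all genes tested. Without short RNA genes, no Nrp-1+ library correlated best with its own number, so the numbers are not taken as pairs. Among the 22 genes refitted with the block, it changed no call other than those of Bmpr2 and Tgif1. With the correction and the block Map2k3 had an adjusted p of 0.0539, with quantile normalization Foxp3 had 0.0992, and with array weights Tgif1 had 0.0525. Without the filter Bmpr2 had 0.0614 and Tgif1 0.0666. With 4 libraries a group, no exact test goes below 0.0286, and for Eng the low fragment number limits the precision.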

Other observations

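The genes whose pattern over the 8 libraries was most like that of each gene that passed were found by Pearson's r on log2(FPKM + 1), short RNA genes left out. They are given as a description, since any gene that separates the groups in the same direction has a high r over 8 points in 2 groups. Tgfbr1 was closest to Agps (r = 0.987) and 2010204K13Rik (0.984), and Map3k7 to Upf3b (0.995) and Nsdhl (0.988). Tgfbr3 was closest to Nono (0.991) and Phka2 (0.989). Tgfbr2 was closest to Ipcef1 (0.994) and Kidins220 (0.994), and Acvrl1 to 4933434E20Rik (0.980) and Atxn7l3b (0.978). Eng was closest to Myo1e (0.974), at 1.32 FPKM against 0.865 FPKM, and Hnrnpul2 (0.971).

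Most markers of other cell types were low. Of the myeloid list, Itgam, which is also found on some activated T cells, was at 6.70 FPKM in Nrp-1+ iTreg against 5.56 FPKM without overlap (adjusted p = 0.00136 by limma), while Csf1r, Emr1, Itgax and Lyz2 stayed at or below 0.352 FPKM in every library and Cd68 was at 0.642 FPKM against 0.898 FPKM with overlap (at most 1.57 FPKM in a library). Of the B cell list, Ms4a1 was listed at 0 throughout, Cd79a was at 0.589 FPKM against 0.390 FPKM with overlap, and Cd79b was at 5.09 FPKM against 4.58 FPKM with overlap. Of the NK and CD8 list, Cd8b1 was at 7.86 FPKM against 10.0 FPKM without overlap (adjusted p = 0.0119 by limma), while Cd8a, Ncr1 and Klrb1c did not exceed 0.121 FPKM.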
